A study of Mus musculus with 2 samples.

Results

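The 10 genes described here are established targets of the transcription factor p53, measured in 2 RNA libraries from sorted cells labelled as mammary gland basal cells. The genes were Cdkn1a, Ccng1, Mdm2, Zmat3, Trp53inp1, Sesn2, Phlda3, Fas, Bax and Bbc3, taken by name, which is 10 of 54438 genes. Their 39 listed transcripts were taken from the 137767 transcripts in the deposited tables, summed per gene and also read one by one. By the labels, both libraries came from the mammary gland of wild type C57BL/6 mice aged 8 weeks, and the series describes Pdl1+ and Pdl1- cells. No allele, agent or treatment other than preparation of single cells is named, and nothing in the sources used here gives the mice, cells or gates behind each library. The labels carry the titles W1 and W2 and do not say which library is which class, so the 2 libraries are described side by side, as library W1 and library W2. Each is a single library without a replicate, no test was possible, and no difference below can be read as an effect of Pdl1.

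p53 is held at a low level in most unstressed cells because Mdm2, itself a p53 target, marks it for degradation. After DNA damage and other stresses it accumulates, binds response elements and raises transcription of genes that halt the cell cycle, promote repair, restrain growth signalling or start apoptosis. In the mammary gland, as in other epithelia, it is best known as a tumour suppressor. Many of its targets are also transcribed without p53, by factors that differ between cell types.

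A p53 response element is made of decamers, each with purines, a C, a central pair of A or T, a G and pyrimidines. RefSeq promoter windows on GRCm38.p6, from 250 bases before to 50 bases after an annotated start, were found for 8 of the 10 genes (11 windows), and Zmat3 and Trp53inp1 had no entry. A perfect decamer, which reads as a decamer on either strand, was present in 4 of these 11 windows, those of Cdkn1a, Ccng1, Mdm2 and Bax. It was present in 8.36% of all 32851 windows of the same length. The upstream start of Cdkn1a was the only one of the 11 windows with 2 decamers at most 13 bases apart, an arrangement found in 24 of all windows (0.0731%). The first bases of the pair lay 73 and 51 bases before the start. The rule of perfect matches leaves out tgacatgttc, which directly follows the second decamer and departs from the pattern only in its first base. Which decamers p53 binds was not tested. The windows of Fas, Sesn2, Phlda3 and Bbc3 held no perfect decamer, and sequence outside the windows was not searched for any gene. The upstream parts of the 4 windows with a decamer, and that of Phlda3, the gene with the largest difference between the libraries, are shown 5′ to 3′ with decamers in capitals, and without bases that GENCODE M21 places inside the gene.
Cdkn1a (chr17:29090729-29090975, plus strand): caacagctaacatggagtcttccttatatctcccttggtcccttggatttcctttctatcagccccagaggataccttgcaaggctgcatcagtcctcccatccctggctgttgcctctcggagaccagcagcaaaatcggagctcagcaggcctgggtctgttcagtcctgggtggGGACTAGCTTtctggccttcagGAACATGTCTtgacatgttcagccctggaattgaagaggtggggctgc
Ccng1 (chr11:40755312-40755536, minus strand): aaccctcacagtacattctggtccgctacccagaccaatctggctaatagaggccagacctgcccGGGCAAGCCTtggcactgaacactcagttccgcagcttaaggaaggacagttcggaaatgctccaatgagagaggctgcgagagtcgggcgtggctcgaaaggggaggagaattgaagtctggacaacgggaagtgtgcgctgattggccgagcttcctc
Mdm2 (chr10:117710759-117711008, minus strand): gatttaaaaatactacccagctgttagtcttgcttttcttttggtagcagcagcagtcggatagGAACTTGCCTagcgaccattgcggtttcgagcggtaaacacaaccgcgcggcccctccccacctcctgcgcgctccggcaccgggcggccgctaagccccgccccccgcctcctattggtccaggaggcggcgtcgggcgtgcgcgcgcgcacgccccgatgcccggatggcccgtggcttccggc
Bax (chr7:45466899-45467148, minus strand): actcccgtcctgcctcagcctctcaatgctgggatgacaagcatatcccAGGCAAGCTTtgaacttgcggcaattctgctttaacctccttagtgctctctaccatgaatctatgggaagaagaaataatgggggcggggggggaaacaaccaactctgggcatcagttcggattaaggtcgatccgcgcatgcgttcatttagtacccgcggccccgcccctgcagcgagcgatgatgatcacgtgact
Phlda3 (chr1:135765835-135766084, plus strand): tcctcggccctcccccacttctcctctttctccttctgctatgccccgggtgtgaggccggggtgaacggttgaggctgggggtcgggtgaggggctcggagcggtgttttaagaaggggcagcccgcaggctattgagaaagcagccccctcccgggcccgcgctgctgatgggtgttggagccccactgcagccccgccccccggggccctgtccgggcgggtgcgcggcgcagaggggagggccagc
A match describes letters in a window and is not evidence of binding.

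The libraries were shallow, with 3055840 (W1) and 3800030 (W2) counted reads. The tables appear to undercount genes whose isoforms share sequence, but how reads were counted is not known. Against the labelled cell type, library W1 was almost without basal keratins (Krt14, 1 read, and Krt5, 0 reads, against 6230 and 3923 in library W2). Marker lists of basal keratin and adhesion (5 of 9 compared), myoepithelial (8 of 8), luminal (8 of 8) and fibroblast genes (7 of 7) passed the 2-fold rule toward W2. Their summed levels in W2 were 14900, 25520, 5476 and 230.3 TPM, against 233.3, 59.37, 263.7 and 3.76 TPM in W1. Of the 12 endothelial markers, 9 were compared and all 9 were higher in library W1, with a summed level of 4929 and 7.07 TPM, and 10 of the 12, Pecam1 and Cdh5 among them, were at 0 in library W2. Of 12 leukocyte markers, 4 were compared and 3 were higher in library W1 (summed level 95.02 and 7.17 TPM). These were Lyz2 (186 and 0 reads), Cd79a (145 and 0) and Laptm5 (50 and 0), while Csf1r (122 and 99 reads) lay within 2-fold. Ptprc had 6 and 0 reads and Cd3e had 0 in both. In bulk samples, fewer cells of a type and less RNA per cell cannot be told apart. The part of these differences in cell content in the results below was not tested.

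The p53 target transcripts differed in how much sequence set them apart from other transcripts. Stretches of 50 bases found in no other listed transcript are called own stretches here. The 10 transcripts with a read had between 231 and 3426 own stretches. The 29 transcripts without a read had between 0 and 1252, with a median of 59, and 22 of them had fewer than 150. Among the 23 protein-coding transcripts, 9 had reads, and none of the 14 without reads had more than 115 own stretches. Sesn2, with 1 listed transcript and all of its 3426 stretches its own, was the only gene of the 10 whose whole length set it apart.

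**Figure D1:**
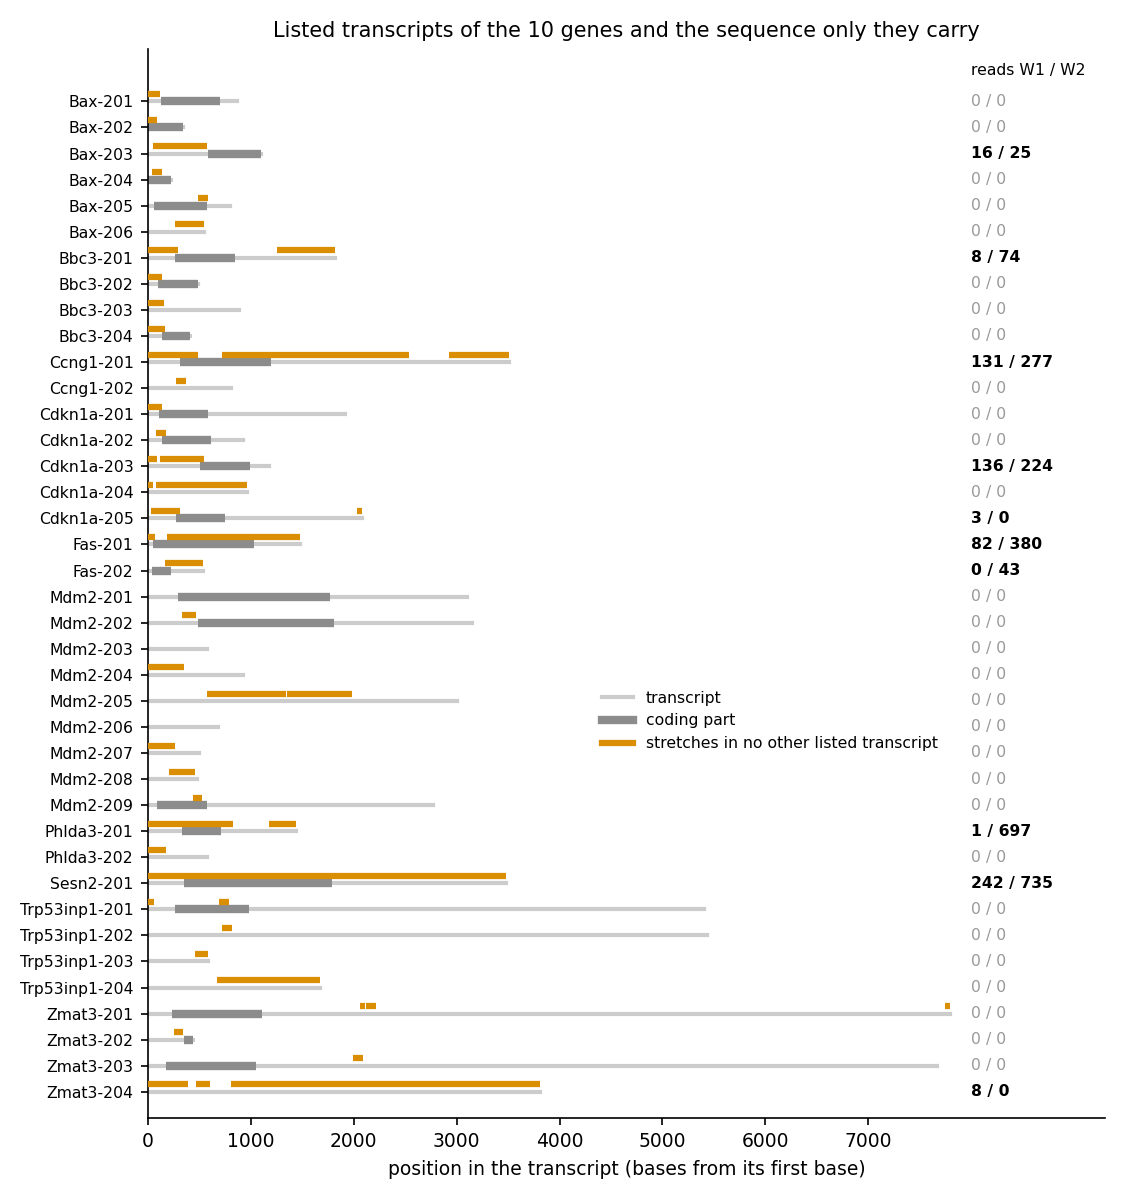
Each line is 1 of the 39 listed transcripts, drawn from its first base (bases on the x axis), with the coding part in dark grey and sequence covered by own stretches in orange. The numbers at the right are reads in libraries W1 and W2, and the 10 transcripts with reads each had at least 231 own stretches, as did Bax-206, Mdm2-204, Cdkn1a-204, Trp53inp1-204 and Mdm2-205 (238 to 1252), which had none.

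Mdm2, the ubiquitin ligase that limits p53, had 9 listed transcripts and 0 reads in each library. Its full-length coding transcript Mdm2-201 had 3041 of 3050 stretches found in no other gene, yet 0 found in no other transcript, and Mdm2-202 had 88. Trp53inp1, a nuclear protein that promotes p53 activity and autophagy, was also at 0 reads in both libraries. Its coding transcript Trp53inp1-201 had 59 own stretches of 5355. The 0 values of these 2 genes therefore do not show that they were silent. Zmat3, an RNA-binding zinc finger protein, had 8 reads in W1 (0.692 TPM) and none in W2. All 8 lay on Zmat3-204, a transcript of 1 exon annotated as a retained intron (chr3:32362202-32366014, minus strand). The coding transcripts Zmat3-201 and Zmat3-203 had 54 and 49 own stretches and no reads, so these values do not describe the spliced message. With a floor of 3 reads in library W2, the level of Zmat3-204 in W1 was at least 2.69-fold higher, the reverse of the direction of the other genes with reads.

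The 10 genes together had 2455 reads in W2 against 627 in W1, which came to 448.5 and 99.45 TPM. All 7 genes with reads in both libraries had more reads and a higher TPM in library W2. Library W2 was also the deeper one, with 3800030 counted reads against 3055840. The rule for calling a gene higher was a 2-fold difference on the scale of TPM + 1, applied to genes that reached 1 TPM in a library, which 7 of the 10 did. Phlda3 passed that minimum through library W2 alone. Higher in library W2 were 5 genes (Phlda3, Bbc3, Fas, Sesn2 and Ccng1), 0 were higher in library W1, and Cdkn1a and Bax lay within 2-fold. Over all 12587 genes that reached 1 TPM, 32.9% were called higher in W2 and 34.7% in W1, together 67.6%. The median log2 ratio of TPM + 1, W1 over W2, was -1.55 over the 7 genes and -0.07 over all genes compared. Over the 6804 genes that passed the minimum in W1 as well as in W2, the median log2 ratio of TPM, without the added 1, was -0.35. The direction over all genes compared depended on the scaling. Their median was 0.23 on FPKM and 0.29 with scaling by the median ratio, toward W1. At these settings the median of the p53 targets was -1.25 and -1.21, still toward W2. These counts describe 2 libraries and were not tested.

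**Figure D2:**
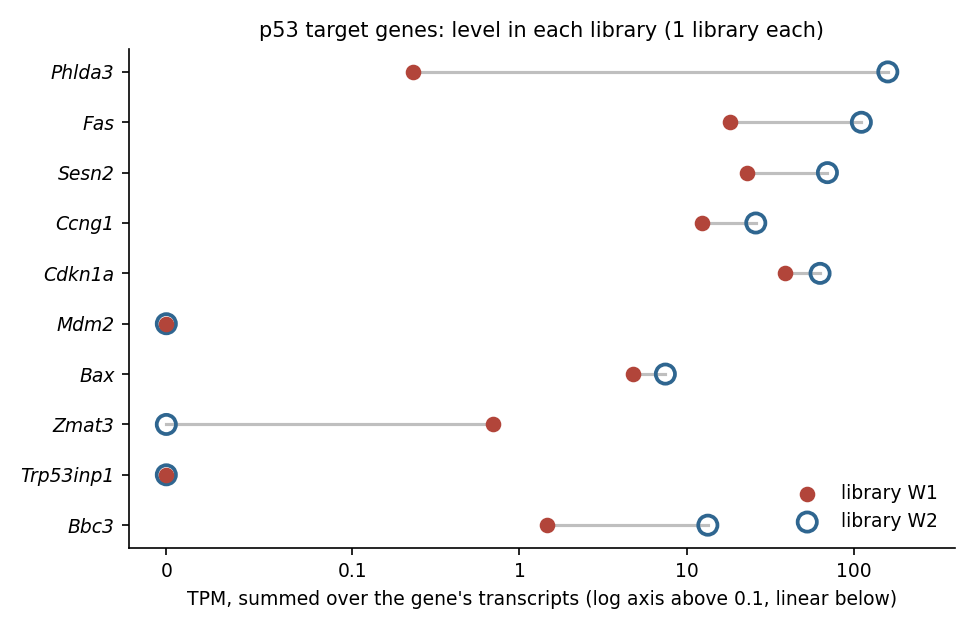
Each row is a gene, with its summed TPM in library W1 (filled) and library W2 (open) on the x axis, 1 library each, and no error bar since there are no replicates. Of the 8 genes with reads, 7 are higher in library W2, and Zmat3 is the exception. Folds run from the smallest, 7.45 against 4.80 TPM for Bax, to the largest, 159 against 0.23 TPM for Phlda3. On TPM, the 6804 genes that passed 1 TPM in W1 as well as in W2 also leaned to W2 (median log2 ratio -0.35). Of all genes compared, 34.7% were called higher in W1 and 32.9% in W2.

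Among the genes of cell cycle arrest, Cdkn1a encodes p21, an inhibitor of cyclin-dependent kinases and the classical p53 target. The gene (ENSMUSG00000023067.14, chr17:29090976-29100727, plus strand, GRCm38) had 62.65 TPM in W2 (224 reads) against 38.8 TPM in W1 (139 reads). Library W2 was 1.62-fold higher, with an exact 95% interval of 1.30 to 2.01 that covers counting error only, as do all intervals here. The log2 ratio of TPM + 1 was -0.68, within the 2-fold rule. All 224 reads in W2 and 136 of those in W1 were on Cdkn1a-203, a transcript of 2 exons that starts inside the gene (chr17:29097900-29099577), downstream of the promoter shown above. Of its 517 bases in own stretches, 470 lay in no exon of another listed Cdkn1a transcript and 36 were coding. If reads were counted on own sequence only, which is not known, the value reads mostly the extended first exon of Cdkn1a-203. The transcripts Cdkn1a-201 and Cdkn1a-202, with 59 and 48 own stretches, were at 0 in both libraries. Cdkn1a-205 had the other 3 reads of W1, and its exons overlap the antisense gene AC167363.2 by 261 bases, whose reads cannot be told apart without strand.

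Ccng1, cyclin G1, a p53 target that feeds back on Mdm2 activity, was the call closest to the 2-fold limit. The gene (ENSMUSG00000020326.7, chr11:40748552-40755311, minus strand) had 25.9 TPM in W2 (277 reads) against 12.3 TPM in W1 (131 reads), all on Ccng1-201. The fold was 2.10 (1.70 to 2.61) and the log2 ratio -1.01. The interval includes folds under 2. The call ended under 4 alternatives, with a log2 ratio of -0.72 on FPKM, -0.68 with scaling by the median ratio, -0.83 with a pseudocount of 5 TPM and -0.75 on reads per 1000000 without division by length.

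The gene that restrains growth signalling, Sesn2, encodes sestrin 2, a stress-induced inhibitor of mTORC1. It lies at chr4:132492032-132510501 on the minus strand (ENSMUSG00000028893.8). Sesn2 had 69.3 TPM in W2 (735 reads) against 22.98 TPM in W1 (242 reads). The level was 3.02-fold higher in library W2 (2.61 to 3.50), with a log2 ratio of -1.55. Of the 7 genes compared it had the most own stretches behind its value and, as a ratio of its bounds, the narrowest interval.

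Among the genes of cell death, Phlda3 had the largest difference. Its product is a pleckstrin homology domain protein that competes with Akt for membrane lipids and so restrains a survival signal. The gene (ENSMUSG00000041801.5, chr1:135766119-135769136, plus strand) had 697 reads in W2 (159 TPM) and a single read in W1 (0.23 TPM). The ratio was 692-fold with a counting interval of 124 to 27380, since it rests on 1 read in library W1. On the TPM + 1 scale the log2 ratio was -7.03, and 0.413% of all genes compared had a lower one. All reads lay on Phlda3-201, which has 990 own stretches of 1386, including the whole coding part. Phlda3 held 35.5% of the TPM of the 10 genes in library W2 and 0.231% in library W1. Without it, the other genes summed to 289.3 TPM in W2 and 99.2 TPM in W1.

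Fas, the death receptor that binds Fas ligand, differed in level and in the transcripts read. The gene (ENSMUSG00000024778.13, chr19:34290666-34327772, plus strand) had 110.6 TPM in W2 (423 reads) against 18.2 TPM in W1 (82 reads). It was 6.07-fold higher in library W2 (4.79 to 7.79), with a log2 ratio of -2.54. The coding transcript Fas-201, of 9 exons, had 380 reads in W2 and 82 in W1, a 4.62-fold difference (3.63 to 5.93). Fas-202, of 3 exons with an alternative end, had 43 and 0. It made up 10.2% of the Fas reads in library W2 (7.45% to 13.4%, Clopper-Pearson). In library W1 it had 0 of 82 reads, where the floor of 3 reads is a share of 3.66% and the upper Clopper-Pearson limit is 4.4%. Its value in library W2 was 24% of the TPM of Fas, because the transcript is short. The tables list 2 of the 5 annotated Fas transcripts, and Fas reads came out off whole numbers (81.724 and 379.718 for Fas-201), so its reads are rounded.

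Bbc3 encodes Puma, a BH3-only protein that frees Bax and Bak from their inhibitors. The gene (ENSMUSG00000002083.13, chr7:16308393-16318205, plus strand) had 13.4 TPM in W2 (74 reads) against 1.46 TPM in W1 (8 reads), all on Bbc3-201. It was 9.19-fold higher in library W2, with a wide interval of 4.43 to 22.1, and a log2 ratio of -2.55. Of the 851 bases of own sequence 33 were coding, the rest untranslated.

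Bax, the pore-forming member of the Bcl2 family, had the fewest reads of the genes compared. The gene (ENSMUSG00000003873.11, chr7:45461697-45466898, minus strand) had 7.45 TPM in W2 (25 reads) against 4.80 TPM in W1 (16 reads). The fold of 1.55 had an interval of 0.797 to 3.11, which includes equal levels, and the log2 ratio was -0.54. A difference was not detectable at this depth. All reads lay on Bax-203, where 435 of 531 bases in own stretches were in no exon of another listed Bax transcript and 0 were coding. The main transcript Bax-201 had 62 own stretches and 0 reads.

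**Figure D3:**
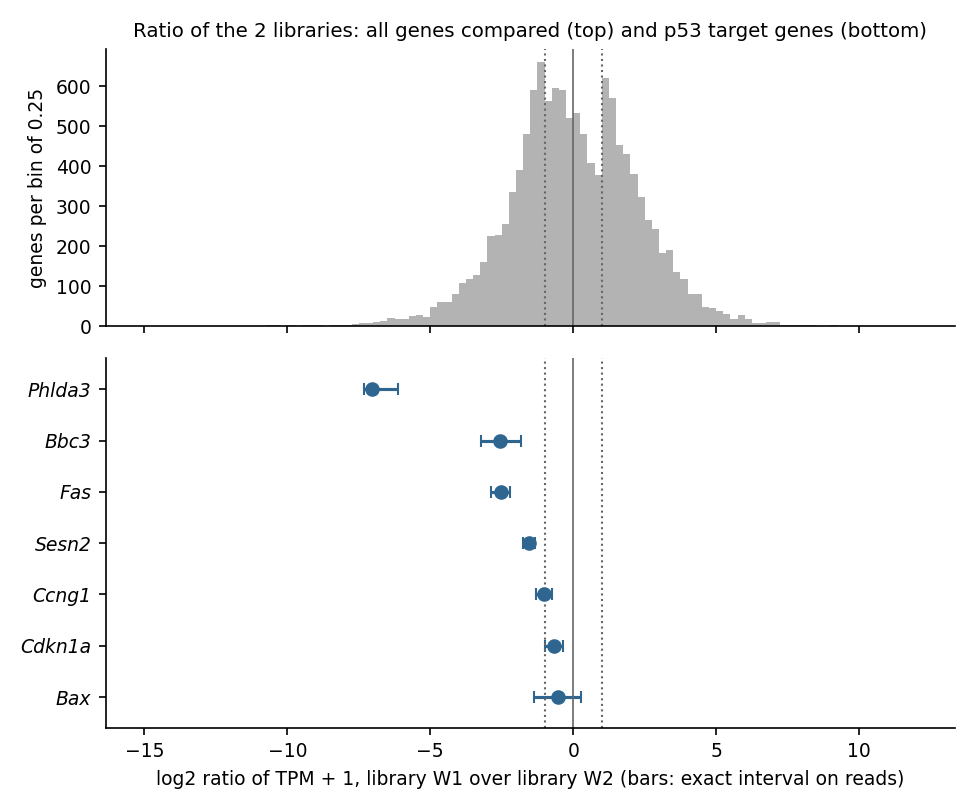
The upper panel counts the 12587 genes compared by their log2 ratio of TPM + 1, library W1 over library W2, and the lower panel gives the 7 p53 target genes that reached 1 TPM, with exact 95% intervals on reads. All 7 points lie below 0, 5 of them past the dotted line of the 2-fold rule, and the interval of Bax crosses 0.

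The order of the genes within a library was taken per length of own sequence. This assumes that reads were counted on own stretches only, which is not known. Over the most read transcript of each of the 7 genes compared, on reads per 1000 own stretches and 1000000 counted reads, Cdkn1a-203 was the highest in library W1 at 106 (89.1 to 126, exact Poisson interval). Sesn2 (23.1), Fas-201 (21.2), Ccng1-201 (15.6), Bax-203 (10.9) and Bbc3-201 (3.48) followed, and Phlda3-201 was the lowest at 0.331 (0.00837 to 1.84). Below Cdkn1a-203, the intervals of neighbours in this order overlapped. In library W2 Phlda3-201 was the highest at 185 (172 to 200), ahead of Cdkn1a-203 at 141 (123 to 160). Fas-201 (79.1) and Sesn2 (56.5) came next, then Ccng1-201 (26.5) and Bbc3-201 (25.9), whose intervals overlapped, and Bax-203 was the lowest at 13.7 (8.83 to 20.2). Phlda3-201 thus held opposite ends of the order in the 2 libraries, while on this measure Cdkn1a-203 was among the highest in both. On TPM, Phlda3-201 (159 TPM) was also the highest in library W2. Fas-201 (84.05 TPM), Sesn2 (69.3 TPM) and Cdkn1a-203 (62.65 TPM) followed it. In library W1, Cdkn1a-203 (38.3 TPM) was again the highest and Phlda3-201 (0.23 TPM) the lowest. These orders are of single transcripts. The own sequence of Cdkn1a-203 and Bax-203 held 36 and 0 coding bases. Their values do not give the level of the other transcripts of Cdkn1a and Bax.

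p53 itself and its regulators lay in both directions. Trp53, which encodes p53 and was named after its values were seen, had 25 reads in W1 (2.52 TPM) and 5 in W2 (0.5 TPM), on 1 of 6 listed transcripts. In the values that follow, the first is that of W1 and the next that of W2. Of the 20 genes in the list of p53 family members and regulators, 15 were compared. Of these, 7 (46.7%) were higher in W1 and 3 (20%) in W2, against 34.7% and 32.9% of all genes, and their median log2 ratio was 0.25. Among the 7, Trp53bp1 rests on 2 reads in W1 and 0 in W2. Mdm4, the partner of Mdm2, was read at 15.4 and 3.78 TPM, and the deubiquitinase gene Usp7 at 23.3 and 0.138 TPM. The Usp7 values rest on 83 reads in W1 and 2 in W2, and the fold interval is wide, 45.4 to 1420. The coactivator genes Crebbp (15.6 and 16.1 TPM) and Ep300 (10.7 and 10.01 TPM) and the acetyltransferase gene Kat5 (35.7 and 47.0 TPM) lay within 2-fold. The p53-binding protein genes Ppp1r13l (1.79 and 20.1 TPM), an inhibitor, and Trp53bp2 (8.17 and 20.97 TPM) were higher in library W2. The p53 relatives Trp63 and Trp73 had 0 reads, and so did Chek2 and Cdkn2a. They had 8, 7, 6 and 2 listed transcripts. The largest share of own stretches in a transcript was 63.6%, 20.9%, 45.6% and 37.5%. Own stretches of their coding transcripts are not given here, unlike those of Mdm2, so their 0 values are not read as showing that they were silent.

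Other reported p53 targets were divided by function. Of 62 genes in 4 lists, 40 were compared, 17 (42.5%) were higher in W2 and 13 (32.5%) in W1, against 32.9% and 34.7% of all genes. The median log2 ratio was -0.59. The count higher in W2 was 12 on FPKM and 12 with scaling by the median ratio, where 28.1% and 27.7% of all genes were higher in W2. In the growth arrest list 5 of 7 compared genes were higher in W2 and none in W1. They included Sfn, 14-3-3 sigma and an epithelial gene (6.34 and 5296 TPM), Gadd45a (7.83 and 108.7 TPM), Gadd45g (119 and 314.3 TPM) and Ckap2 (0.509 and 7.71 TPM). Btg2 (196 and 264 TPM) and Plk2 (299 and 155.5 TPM) lay within 2-fold. In the DNA repair list 6 of 9 were higher in W2 and 1 in W1, with Xpc at 2.76 and 9.11 TPM, Pcna at 19.4 and 60.4 TPM, Fancc at 0 and 12.3 TPM and Ercc5 at 0.557 and 7.37 TPM on one side. Polh, a translesion polymerase gene, stood at 4.94 and 1.17 TPM.

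Among the cell death targets beyond the 10 genes, more were higher in W1 than in W2. Of 13 compared, 7 (53.8%) were higher in W1 and 2 (15.4%) in W2, against 34.7% and 32.9% of all genes. The median log2 ratio was 1.14. Of the 7, Trp53i11 and Lif rest on 2 reads each. The death receptor gene Tnfrsf10b stood at 136 and 8.35 TPM, the ectodysplasin receptor gene Eda2r at 39.97 TPM and 0 reads, and Casp1 at 55.6 and 18.6 TPM. Perp, a desmosome-associated protein of stratified epithelia, had 0 and 3772 reads, and Ier3 stood at 2568 and 5201 TPM. The 2 death receptor genes of the p53 programme, Fas and Tnfrsf10b, thus lay on opposite sides. In the metabolism and redox list 5 of 11 (45.5%) were higher in W1 and 4 (36.4%) in W2, against 34.7% and 32.9% of all genes. Of the 5, Dglucy rests on 2 reads in W1 and 0 in W2, and Abhd4 on 10 and 1. Tigar (4.61 TPM and 0 reads), Sat1 (43.7 and 12.1 TPM) and Hexa (163 and 79.2 TPM) were on one side, and Gpx1 (3.75 and 17.9 TPM), Fdxr (0 and 18.05 TPM) and Ddit4 (10.5 and 23.9 TPM) on the other. Sesn3, a relative of Sesn2, stood at 7.76 and 7.87 TPM, and Sesn1 had 0 reads.

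**Figure D4:**
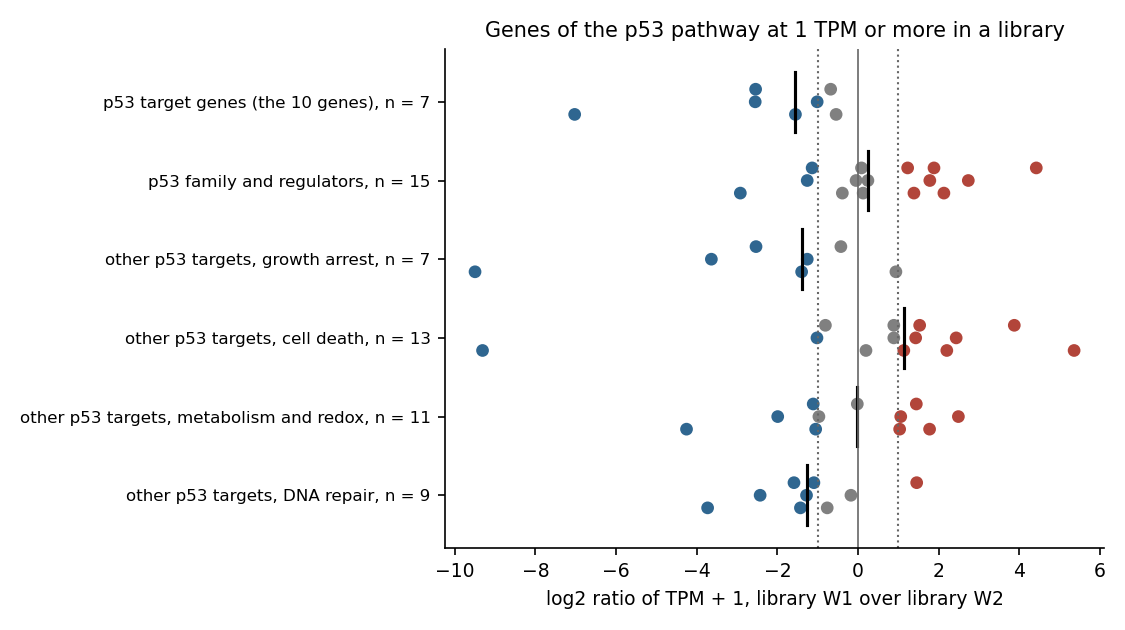
Each point is a gene that reached 1 TPM in a library, placed by its log2 ratio of TPM + 1, library W1 over library W2, and coloured by the 2-fold rule (red higher in W1, blue higher in W2, grey within). Black bars are list medians, which run from -1.55 for the p53 target genes to 1.14 for the other cell death targets.

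The partners of Bax and Bbc3 in the Bcl2 family lay in both directions, with 3 of 9 compared genes higher in each library (33.3%), near the 32.9% and 34.7% of all genes. The inhibitor of apoptosis Mcl1 stood at 318 and 208 TPM and Bcl2 at 4.76 and 12.97 TPM. Bok (137 and 11.2 TPM) and Bcl2l11, which encodes Bim (19.3 and 4.37 TPM), were higher in library W1. Pmaip1, or Noxa, a p53 target of the same class as Bbc3, stood at 15.3 and 13.3 TPM, a 1.16-fold difference with an interval of 0.89 to 1.51. Of the other cyclin-dependent kinase inhibitors, relatives of Cdkn1a, Cdkn1b (1.45 TPM and 0 reads) and Cdkn2b (5.70 TPM and 0 reads) were higher in library W1 and Cdkn2c (0 reads and 3.32 TPM) in library W2, while Cdkn1c had 2 reads in each. Early response genes, which dissociation of tissue can induce, were higher in library W2 in 4 of 13 compared (30.8%, against 32.9% of all genes) and in library W1 in 2 (15.4%, against 34.7%). Atf3 (1.33 and 9.91 TPM) was among the former, Fosb (121 and 0 reads) and Dusp1 (44.8 and 14.95 TPM) were the latter, and Fos (2547 and 4295 TPM) lay within 2-fold. Their part in the levels of the p53 targets was not tested.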

How the data were processed

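RNA was measured in 2 libraries, made by a Smart-seq method with a stranded kit per the labels' protocols. The deposited tables give, per Ensembl transcript, FPKM and TPM, and the authors' TPM are their FPKM scaled by 1.00852 in library W1 and 1.24567 in library W2. Bowtie 0.12.2 and the builds mm8 and GRCm38 are named, without roles, per the submitters' processing notes. The sources used here give no counter, annotation, read length or strand setting. Identifiers were matched to GENCODE M21 on GRCm38 (137654 matched, 113 not), which may not be the authors' annotation. Reads per transcript were recovered from FPKM times annotated length, which fell on whole multiples of 1 step within 0.1 read for 98.47% and 98.07% of transcripts above 0. Longer reads than the 50 bases assumed for own stretches could be placed over more positions, and own stretches were sought on the forward strand. Genes at 1 TPM or more in a library were compared by the log2 ratio of TPM + 1, which understates the ratio of low genes. Fold intervals are exact Clopper-Pearson intervals on reads at 95%, scaled to TPM, and a library with 0 reads was given a floor of 3 reads. Without molecular identifiers they cover counting error only. The 10 genes are all named. From other lists, up to 6 genes with the most reads, and up to 3 with the largest ratio among those with 20 or more reads, could be named, and genes at 0 or named beyond this rule were chosen after their values were seen. The genes and lists were chosen with earlier results of these data known. Steps were tested on simulated libraries. Alternatives were pseudocounts, FPKM, scalings, filters, the most read transcript and reads without division by length. Tools were Python 3.11.15 with scipy 1.17.1, numpy 2.4.6 and pandas 2.3.3, and matplotlib 3.10.9 for plots.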

Additional observations from a re-analysis of the deposited data

How the results depend on the processing

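The count of p53 target genes higher in library W2 was 5 and lay between 4 and 5 under the 9 alternatives. It was 4 with a pseudocount of 5 TPM, on FPKM, with scaling by the median ratio and on reads per 1000000 without division by length, where Ccng1 lay within 2-fold. The share of all genes higher in W2 was 32.9%, and 19.9%, 28.1%, 27.7% and 28.8% at these settings in turn. The count higher in library W1 was 0, and 1 on reads per 1000000 without division by length, where Zmat3 entered the comparison. The share of all genes higher in W1 was 34.7%, and 39.2% at that setting. The median log2 ratio of -1.55 became -1.25 on FPKM, -1.21 with scaling by the median ratio, -0.85 without a filter on low values and -1.01 on reads per 1000000, and no median reversed. The median of all genes compared moved from -0.07 to 0.23 on FPKM, 0.29 with scaling by the median ratio, 0.26 on reads per 1000000 and -0.25 with scaling without mitochondrially encoded and ribosomal protein genes. The share of all genes called was 67.63%, 36.71% with a pseudocount of 5 TPM and 15.64% without a filter. The count of other p53 targets higher in library W2 was 17, 11 with a pseudocount of 5 TPM, and 12 both on FPKM and with scaling by the median ratio. The shares of all genes higher in W2 were 32.9%, 19.9%, 28.1% and 27.7% in that order. No log2 ratio of the 8 genes with reads changed sign under the 7 alternatives run for single genes. No paired analysis was possible because each title has 1 library. Leaving out a library was likewise not possible. Depth limits Bax, Zmat3, Bbc3 and the level of Phlda3 in library W1, which rest on 25 reads or fewer in a library.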
